A study of Mus musculus with 6 samples.

Results

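Transcripts of 9 genes of the tumour necrosis factor (TNF) superfamily were followed in neutrophils that had been isolated by cell sorting out of infected corneas of mice. The 5 ligand genes were Tnf, Tnfsf9, Tnfsf14, Tnfsf13b and Fasl, and the 4 receptor genes were Tnfrsf1a, Tnfrsf1b, Tnfrsf9 and Fas. They were taken as a named list of symbols, matched to Ensembl identifiers through GENCODE M21, out of 54838 genes in the count tables. All 9 were among the 11924 genes with enough counts to be tested. RNA was sequenced from 3 libraries of wild-type (WT) and 3 of Il1a-/- mice, which lack the gene of the cytokine IL-1 alpha. Both genotypes were infected with PAO1, a laboratory strain of Pseudomonas aeruginosa, and sampled 24 h later, so no uninfected neutrophils serve as a baseline. The sources used here do not give strain, age, sex or the number of mice per library. The labels number 3 biological replicates per genotype without naming animals. The p-values therefore set the genotype difference against the spread between these libraries. The question posed by the design is how loss of IL-1 alpha alters neutrophil gene expression during corneal infection.

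TNF superfamily ligands are trimeric proteins, mostly made as membrane proteins, and many can be cut from the cell surface. Some of their receptors carry a death domain, as Tnfrsf1a and Fas do, and can start apoptosis or necroptosis. Many, with or without a death domain, turn on NF-kB through TRAF adaptors. Neutrophils are both a source and a target of TNF, which primes their oxidative burst and adhesion, while Fas ligation can shorten their life span.

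Totals ran from 22855676 to 33626008 gene counts per library. Il1a had 136694 to 272865 counts in WT and 92 to 174 in Il1a-/- libraries, so each library carried the Il1a level of its label. All 12 neutrophil markers listed were tested, led by S100a9 at 14129 ± 1390 CPM in WT and 13296 ± 897 CPM in Il1a-/- (counts per 1000000 of the TMM-adjusted library size; SD, n = 3 each). Il1a-/- replicate 2 scored 67.3 on the leading principal component, where the other 5 libraries scored from -32.9 to 2.10. In bulk RNA, fewer cells of a type and less RNA per cell cannot be told apart.

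Of the 9 genes, 0 passed an adjusted p of 0.05 over all genes in edgeR's quasi-likelihood test, where 0.101% of all tested genes did (12 of 11924), 0.0755% with the higher and 0.0252% with the lower level in Il1a-/-. At an unadjusted p under 0.05 there were 2 of the 9, Tnfsf9 with the higher and Tnfsf14 with the lower level in Il1a-/-, against 5.99% of all tested genes. The same 2 were the members whose 3 Il1a-/- values did not overlap the 3 WT values. Over all tested genes the groups did not overlap for 11.6%, with 6.12% higher and 5.48% lower in Il1a-/-. DESeq2 called 1 of the 9, Tnfsf9, where it called 69 of all 11924 tested genes. The median log2 fold change of the 9 was -0.07, beside 0.00 for all tested genes. The plot of CPM by library shows the individual values.

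**Figure D1:**
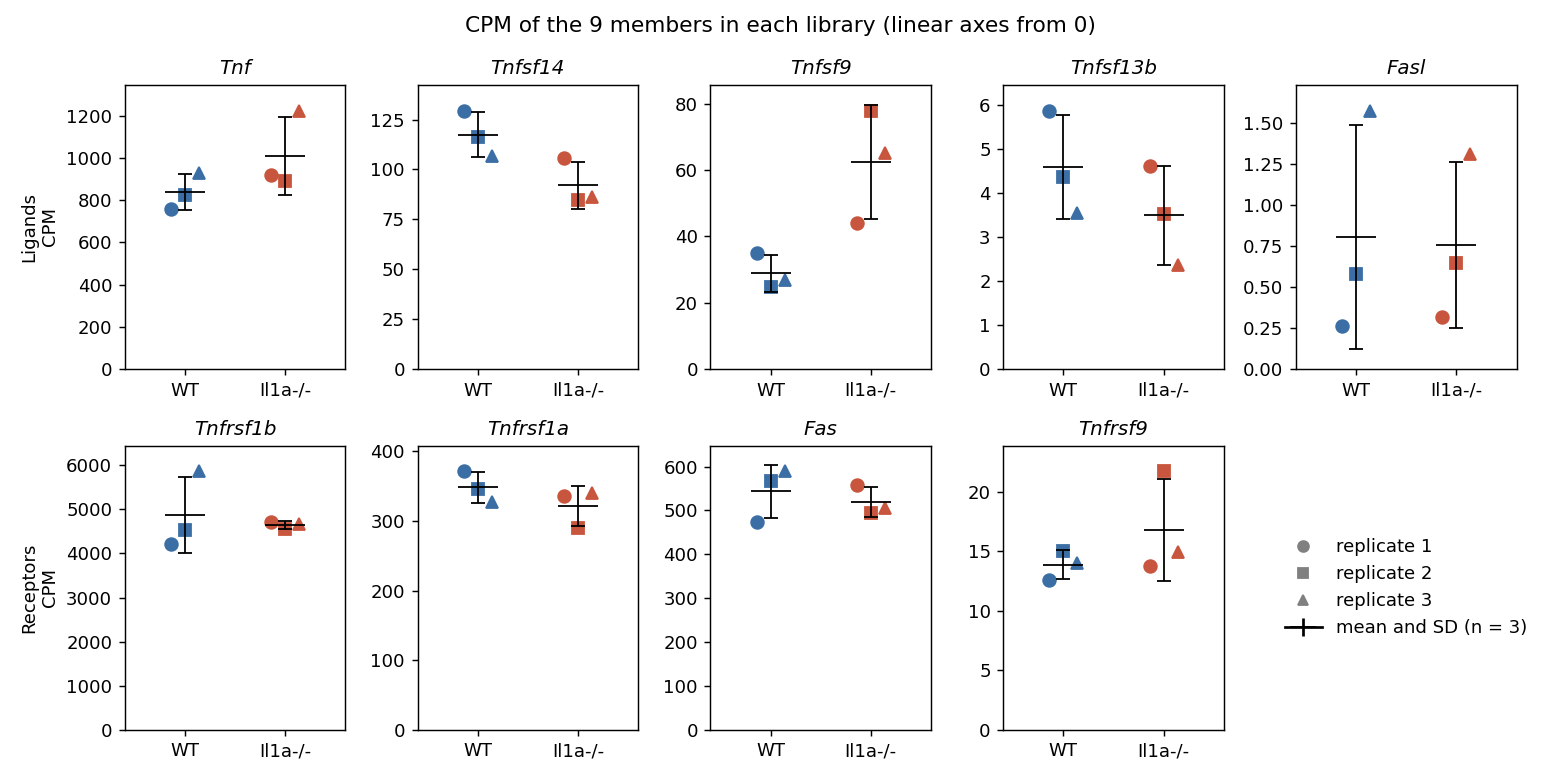
CPM (vertical axes, linear from 0) of the 5 ligand genes (top) and 4 receptor genes (bottom) in 3 WT and 3 Il1a-/- libraries, with mean and SD; point shapes give the replicate number. The groups are apart for Tnfsf9 (24.7 to 35.03 against 44.0 to 77.9 CPM) and narrowly for Tnfsf14 (106.9 to 129.4 against 84.6 to 105.5 CPM), and overlap for the other genes.

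Among the ligands, Tnf was the most abundant. Tnf (ENSMUSG00000024401, GRCm38 chromosome 17, 35199381 to 35202007, minus strand) encodes the founding cytokine of the family. It was at 759, 826 and 928 CPM in the WT libraries and at 919, 892 and 1225 CPM in the Il1a-/- libraries. The Il1a-/- values started within the WT range, and replicate 3 alone lay far above it. The log2 fold change was 0.27 (SE 0.14, 95% interval -0.05 to 0.59, edgeR adjusted p = 0.87), an interval that runs from a ratio of 0.969 to one of 1.51. Without Il1a-/- replicate 3 the log2 fold change was 0.11.

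Tnf is controlled at its promoter and through AU-rich elements in its 3′ untranslated region, to which tristetraprolin (Zfp36) binds to speed decay of the mRNA. Both kinds of sequence are shown because the level of this transcript, the highest of the ligands, is the base of the comparisons below. In the longest coding transcript of GENCODE M21 (GRCm38), the 3′ untranslated region of Tnf is 764 bases long. It holds the nonamer TTATTTATT 5 times, in an unbroken run of 31 bases whose leading 30 bases are given here, with capitals for bases within a nonamer:
Tnf AU-rich run: TTATTTATTATTTATTTATTATTTATTTAT
Of 9883 tested genes with such a region, 8.2% hold the nonamer and 0.65% hold it 3 times or more. Among the other members only Tnfsf13b holds it in that transcript, 1 time. These regions differ in length, and a match is a description of letters only.

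The 250 bases before the RefSeq start of Tnf and of 3 further members are given below (GRCm38.p6, 5′ to 3′ along the gene). Tnfrsf1b and Fas are the most abundant receptors of the list, and Tnfsf14 is the ligand gene whose values lay below WT. Capitals mark the TATA box (TATAAA), the AP-1 site (TGANTCA) and the GC box (GGGCGG), searched on both strands; the NF-kB consensus was searched as well.
Tnf promoter (chr17:35202008-35202257, minus strand): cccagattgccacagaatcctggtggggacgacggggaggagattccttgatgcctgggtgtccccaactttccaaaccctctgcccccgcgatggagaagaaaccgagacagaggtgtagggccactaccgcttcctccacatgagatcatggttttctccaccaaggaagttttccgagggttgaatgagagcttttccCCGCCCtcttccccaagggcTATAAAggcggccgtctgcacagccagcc
Tnfsf14 promoter (chr17:57194182-57194431, minus strand): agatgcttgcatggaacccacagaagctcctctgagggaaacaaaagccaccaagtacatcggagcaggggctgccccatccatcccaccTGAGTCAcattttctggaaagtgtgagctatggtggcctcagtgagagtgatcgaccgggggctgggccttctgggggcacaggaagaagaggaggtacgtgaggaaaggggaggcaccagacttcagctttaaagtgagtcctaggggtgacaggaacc
Tnfrsf1b promoter (chr4:145246871-145247120, minus strand): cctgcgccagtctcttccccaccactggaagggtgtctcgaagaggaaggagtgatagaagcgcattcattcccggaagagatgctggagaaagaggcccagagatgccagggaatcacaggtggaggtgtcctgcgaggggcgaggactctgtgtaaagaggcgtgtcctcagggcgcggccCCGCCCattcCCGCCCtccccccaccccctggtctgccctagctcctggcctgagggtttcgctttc
Fas promoter (chr19:34290409-34290658, plus strand): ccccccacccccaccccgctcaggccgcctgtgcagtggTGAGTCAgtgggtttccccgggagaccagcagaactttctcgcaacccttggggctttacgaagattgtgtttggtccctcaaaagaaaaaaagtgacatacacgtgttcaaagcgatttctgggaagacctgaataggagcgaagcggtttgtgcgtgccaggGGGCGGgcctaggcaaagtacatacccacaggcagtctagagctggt
The TATA box of Tnf lies 29 to 24 bases before the start. Among windows of the same length, TATAAA occurs in 12.4% of 32851 RefSeq promoters, TGANTCA in 6.7%, GGGCGG in 32.7% and the NF-kB consensus in 3.9%. Among the 10689 promoters of tested genes the shares are 6.8%, 5.0%, 56.1% and 4.7%. Tnfsf14 and Fas each hold TGAGTCA 1 time, at 160 to 154 and 211 to 205 bases before the start, and Tnfrsf1b holds the GC box 2 times. None of these 4 windows holds the NF-kB consensus as searched, GGGRNWYYCC. Bases further upstream, and sites that depart from these letters, were not searched, so the genes may hold NF-kB sites there. Among the windows of the members, which include none for Tnfsf9, the consensus occurs in 1, before the downstream of the RefSeq starts of Tnfrsf9. Overlapping matches lie there at 43 to 34 and 42 to 33 bases before the start, next to TGAGTCA at 15 to 9. That window overlaps an annotated exon and is not printed.

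Tnfsf9 showed the largest difference of the 9. Tnfsf9 (ENSMUSG00000035678, chromosome 17, 57105325 to 57107757, plus strand) encodes the ligand of 4-1BB, a costimulator of T cells that also signals back into myeloid cells. It was at 35.03, 24.7 and 26.8 CPM in WT and at 44.0, 77.9 and 65.2 CPM in Il1a-/-. All 3 Il1a-/- libraries lay above all 3 WT libraries, and Il1a-/- replicate 1 was the nearest to them. The ratio was 2.16, with a 95% interval from 1.55 to 3.02 (log2 fold change 1.11, SE 0.22, unadjusted p = 0.000386, edgeR adjusted p = 0.15). With no low-count filter Tnfsf9 was called (edgeR adjusted p = 5.2e-08), among 185 called of 24151 tested genes. The log2 fold change there was 1.11 as well, so that smaller p did not go with a larger difference. DESeq2 called Tnfsf9 (adjusted p = 0.00012) among 69 of 11924 tested genes. Without Il1a-/- replicate 1 it was called (edgeR adjusted p = 0.031) among 24 of 12663 tested genes. Over the 15 other settings the log2 fold change ran from 0.91, without Il1a-/- replicate 2, to 1.31.

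An antisense gene model overlaps Tnfsf9 and touches its count. Gm11110 (a lincRNA, chromosome 17, 57091370 to 57105942, minus strand) covers 618 bases of the gene, at its 5′ end. The unstranded count leaves out reads in both models, and the kit does not mark strand. Summing the strand columns, which give such reads to each gene, raised Tnfsf9 from 936, 766 and 832 counts to 1247, 1029 and 1153 in WT and from 1399, 2527 and 1493 to 1925, 3386 and 2032 in Il1a-/-. The shared reads made up 24.9% to 27.8% of the sum, with no separation of the genotypes. Gm11110 alone had 8 to 31 unstranded counts per library. On the summed counts Tnfsf9 was at 46.7, 33.1 and 37.1 CPM in WT and at 60.5, 104.4 and 88.7 CPM in Il1a-/- (edgeR adjusted p = 0.14). The other 8 members gained at most 0.11% in that sum.

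Some macrophage and dendritic cell markers were also at higher levels in Il1a-/-, without being called. The sum of the complement genes C1qa, C1qb and C1qc, which macrophages make, was at 2.06, 2.87 and 1.70 CPM in WT and at 3.80, 15.2 and 9.08 CPM in Il1a-/- replicates 1, 2 and 3. The library order was that of Tnfsf9 within Il1a-/- but not within WT. Within Il1a-/- it was also the order of the leading principal component, at -19.6, 67.3 and 2.10 in replicates 1, 2 and 3. An order of only 3 libraries can easily match by chance, and the C1q genes were named after their values were seen. Of 16 listed monocyte and macrophage markers 15 were tested, 0 were called, 6 were higher and 1 lower without overlap (background 6.12% and 5.48%), and the median log2 fold change was 1.23. Their summed level was 889 to 926 CPM in WT and 1016 to 1081 CPM in Il1a-/-, most of it from Cd68, Lyz2 and Csf1r, which neutrophils also express. Dendritic cell markers summed to 38.1 to 59.6 CPM in WT and 58.0 to 75.9 CPM in Il1a-/-, ranges that overlapped. Of these 9 markers 6 were tested and 0 were called, and Siglech was at 0 counts in all libraries. The tested ones were split, with 4 positive and 2 negative log2 fold changes, from -2.26 to 2.29, and 1 higher and 1 lower without overlap. The part of these cells in the level of Tnfsf9 was not tested.

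**Figure D2:**
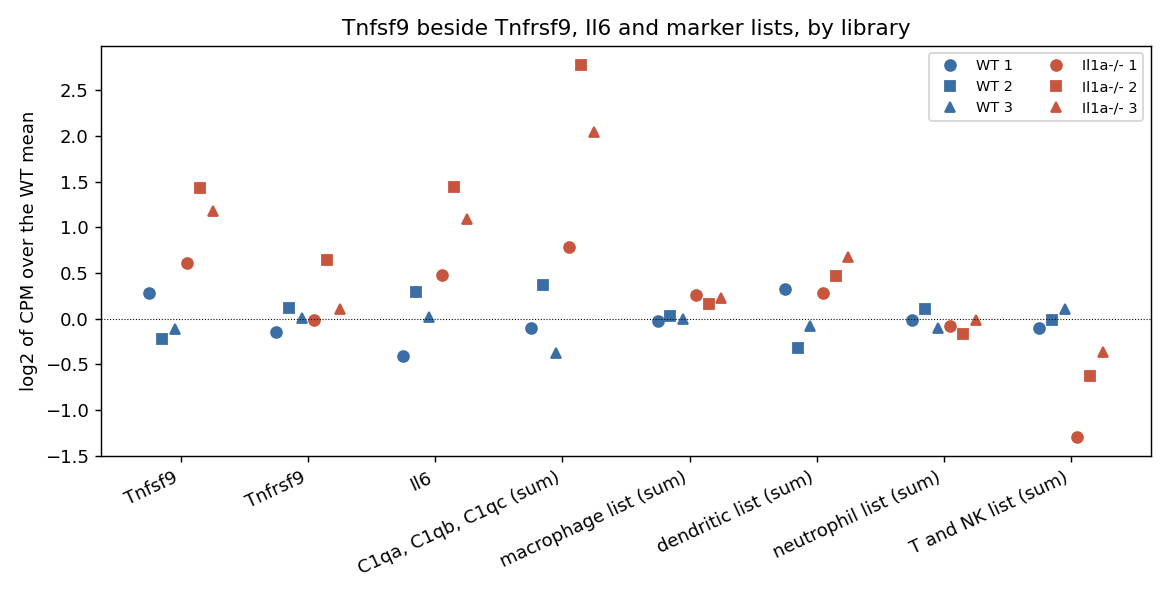
Log2 of CPM over the WT mean (vertical axis) for Tnfsf9, its receptor gene Tnfrsf9, Il6, the C1q genes and summed marker lists; each point is 1 library, with blue for WT and red for Il1a-/-. Tnfsf9, Il6 and the C1q sum lie above WT in all 3 Il1a-/- libraries and are highest in replicate 2. The neutrophil sum, most of it from S100a8, S100a9 and Lcn2, differs little between libraries. Of its 12 markers 9 had a negative and 3 a positive log2 fold change, and 0 were called.

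Tnfsf14 (ENSMUSG00000005824, chromosome 17, 57189492 to 57194177, minus strand) encodes LIGHT, a ligand of the lymphotoxin beta receptor and of Tnfrsf14. It was at 129.4, 116.1 and 106.9 CPM in WT and at 105.5, 84.6 and 86.04 CPM in Il1a-/-. The groups did not overlap, but WT replicate 3 and Il1a-/- replicate 1 were almost level. The ratio was 0.784 (95% interval 0.638 to 0.964, log2 fold change -0.35, unadjusted p = 0.025, edgeR adjusted p = 0.78). The log2 fold change lay between -0.47 and -0.29 over the 15 other settings, 0 of which called it.

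Tnfsf9 and Tnfsf14 lie 81734 bases apart in the same small ligand cluster, with values on opposite sides of WT. Cd70, another ligand gene of the family and not tested here, had at most 2 counts in any library. C3, the complement gene 9792 bases beyond Tnfsf14, was at 1050 ± 106 CPM in WT and 1020 ± 121 CPM in Il1a-/- (SD, n = 3 each; log2 fold change -0.04). Dennd1c, on the other side of Tnfsf9, had a log2 fold change of 0.26 (edgeR adjusted p = 0.88). Around Tnf, the neighbours Lta and Ltb, which form lymphotoxin, had log2 fold changes of 0.88 and 0.20 (edgeR adjusted p = 0.93 and 0.98). Lta was scarce, with 14 to 47 counts per library, and Ltb varied from 29.97 to 64.04 CPM in WT and from 32.96 to 82.7 CPM in Il1a-/-.

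The remaining ligands were scarce. Tnfsf13b (ENSMUSG00000031497, chromosome 8, 10006467 to 10039072, plus strand), the gene of the B cell survival factor BAFF, was at 5.88, 4.38 and 3.54 CPM in WT and at 4.62, 3.52 and 2.36 CPM in Il1a-/-. The groups overlapped (log2 fold change -0.39, 95% interval -1.11 to 0.33, edgeR adjusted p = 0.94). Leaving out 1 library moved the log2 fold change of Tnfsf13b to between -0.65, without Il1a-/- replicate 1, and -0.18, without Il1a-/- replicate 3; it was -0.19 without WT replicate 1. Fasl (ENSMUSG00000000817, chromosome 1, 161780689 to 161788495, minus strand), the gene of the death ligand of Fas, had 7, 18 and 49 counts in WT and 10, 21 and 30 in Il1a-/-, or 0.262 to 1.58 and 0.314 to 1.31 CPM. Its spread within each genotype exceeded the difference (log2 fold change -0.11, 95% interval -1.78 to 1.56), so a difference within that interval could not be told from none in these libraries. Without WT replicate 3 the sign turned, to 0.82. T and NK cells are the classic source of Fas ligand; of 20 listed markers of these cells 18 were not tested and 11 were at 0 counts in all libraries, among them Cd3e, Nkg7, Prf1 and Ncr1. The summed level of that list was 2.10 to 2.41 CPM in WT and 0.912 to 1.75 CPM in Il1a-/-.

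Among the receptors, Tnfrsf1b was by far the most abundant. Tnfrsf1b (ENSMUSG00000028599, chromosome 4, 145213463 to 145246870, minus strand) encodes TNF receptor 2, which lacks a death domain and binds membrane TNF well. It was at 4218, 4544 and 5861 CPM in WT and at 4716, 4549 and 4675 CPM in Il1a-/-. The Il1a-/- libraries lay close together inside the WT range, which WT replicate 3 stretched upwards. The log2 fold change was -0.07 (SE 0.13, 95% interval -0.36 to 0.22, edgeR adjusted p = 0.98), and without WT replicate 3 it was 0.08.

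Tnfrsf1a (ENSMUSG00000030341, chromosome 6, 125349362 to 125362484, plus strand) encodes TNF receptor 1, the death domain receptor of soluble TNF. It was at 371, 347 and 327 CPM in WT and at 336, 289 and 341 CPM in Il1a-/-. Only Il1a-/- replicate 2 lay outside the WT range (log2 fold change -0.11, 95% interval -0.37 to 0.14, edgeR adjusted p = 0.95). Per kb of exon, Tnfrsf1b exceeded Tnfrsf1a by 7.71 to 12.2 times in WT and by 9.31 to 10.7 times in Il1a-/-, ranges of the same order in which the Il1a-/- values lay within those of WT.

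Fas (ENSMUSG00000024778, chromosome 19, 34290666 to 34327772, plus strand), the gene of the death receptor CD95, was at 474, 567 and 589 CPM in WT and at 558, 495 and 504 CPM in Il1a-/-. All Il1a-/- values lay within the WT range (log2 fold change -0.07, 95% interval -0.33 to 0.20, edgeR adjusted p = 0.97). Tnfrsf9 (ENSMUSG00000028965, chromosome 4, 150914562 to 150946102, plus strand) encodes 4-1BB, the receptor of the Tnfsf9 product. It was at 12.6, 15.002 and 13.99 CPM in WT and at 13.8, 21.7 and 14.9 CPM in Il1a-/-. Only Il1a-/- replicate 2 stood above WT (log2 fold change 0.28, 95% interval -0.17 to 0.73, edgeR adjusted p = 0.94), and without it the log2 fold change was 0.04. The ratio of Tnfsf9 to Tnfrsf9 per kb of exon was 3.47 to 5.88 in WT and 6.74 to 9.21 in Il1a-/-. The ligand transcript thus exceeded that of its receptor in every library. This ratio understates Tnfsf9, since its values omit the reads shared with Gm11110, 24.9% to 27.8% of its strand sum.

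**Figure D3:**
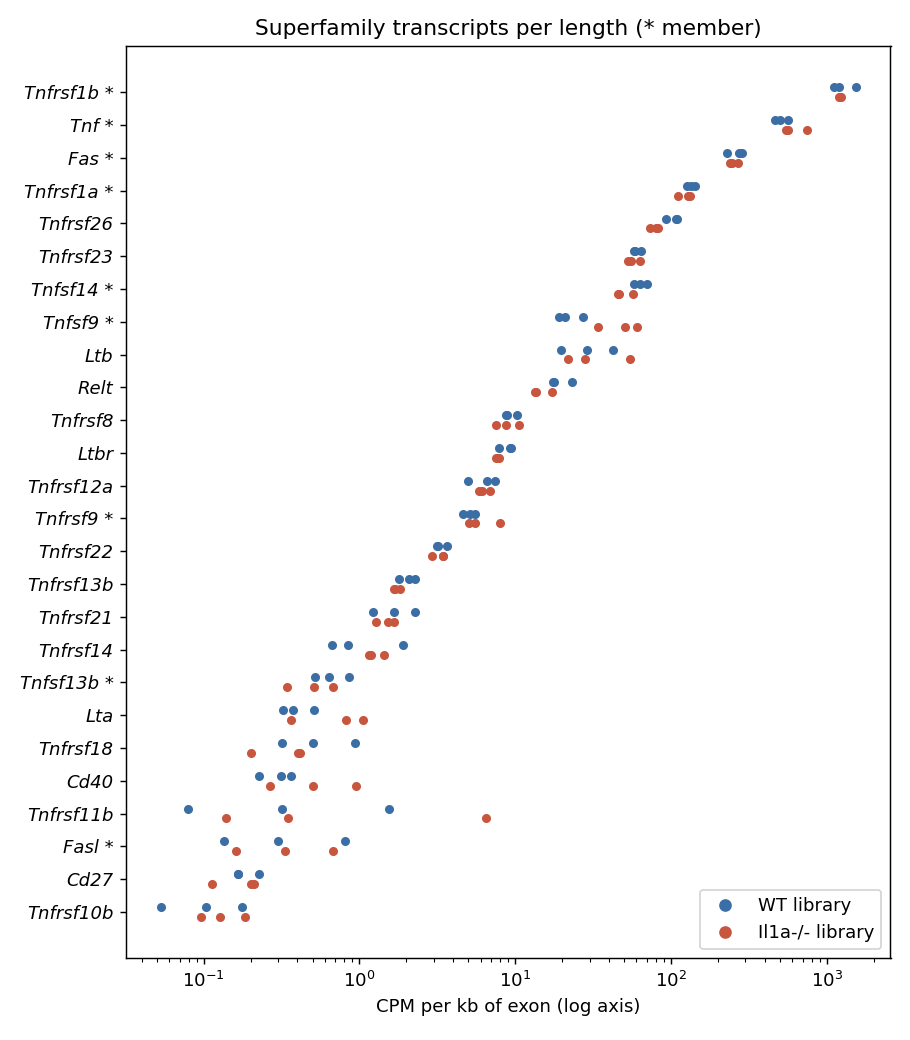
CPM per kb of exon (horizontal log axis) of the 26 tested superfamily genes, ordered by their median over 6 libraries; each point is 1 library and members carry a star. Tnfrsf1b, Tnf, Fas and Tnfrsf1a head the order in both genotypes, and Tnfsf13b and Fasl are near its end.

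Levels were compared between genes as CPM per kb of exon in GENCODE M21. The order by median over the 6 libraries was Tnfrsf1b at 1208, Tnf at 552, Fas at 258, Tnfrsf1a at 131, Tnfsf14 at 57.5, Tnfsf9 at 30.6, Tnfrsf9 at 5.31, Tnfsf13b at 0.576 and Fasl at 0.317 CPM per kb. Neighbours in this order were apart over all 6 libraries except for Tnfsf14 with Tnfsf9 and Tnfsf13b with Fasl. In WT, Tnfsf14 (57.9 to 70.1 CPM per kb) lay above Tnfsf9 (19.1 to 27.2). In Il1a-/- their ranges overlapped, at 45.8 to 57.1 for Tnfsf14 and 34.1 to 60.4 CPM per kb for Tnfsf9, whose values omit the reads shared with Gm11110. Tnf made up 76.7% to 85.0% of the summed CPM per kb of the 18 listed ligand genes in WT and 79.2% to 85.5% in Il1a-/-. Tnfsf9 made up 3.10% to 4.49% and 4.82% to 8.95%, and Tnfsf14 8.68% to 11.6% and 5.33% to 8.07%. On the receptor side Tnfrsf1b made up 65.1% to 70.8% in WT and 67.7% to 68.9% in Il1a-/- of the sum over 28 genes.

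Most other ligands of the superfamily were barely detected. Of 13 further ligand genes 2, Lta and Ltb, were tested and 0 were called. The 11 others had at most 23 counts in any library, and Cd40lg and Eda had none. Of 24 further receptor genes 15 were tested and 0 were called, against 0.101% of all tested genes. Their median log2 fold change was -0.07. In 2 of the 15 the Il1a-/- values lay below WT without overlap, against 5.48% of all tested genes. Tnfrsf26, a decoy-like receptor gene, was at 298, 354 and 344 CPM in WT and at 257, 235 and 266 CPM in Il1a-/- (log2 fold change -0.39, unadjusted p = 0.0066, edgeR adjusted p = 0.57). Its relatives Tnfrsf22 and Tnfrsf23 are close copies with which reads could be shared, and Tnfrsf23 was at 239 ± 13 and 227 ± 22 CPM (SD, n = 3 each). Relt, a TRAF-binding receptor gene of blood cells, was at 64.2 ± 10.5 and 48.4 ± 7.4 CPM (edgeR adjusted p = 0.79). Cd40, the costimulatory receptor gene of antigen-presenting cells, was at 1.02 ± 0.23 and 1.95 ± 1.18 CPM (edgeR adjusted p = 0.88).

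**Figure D4:**
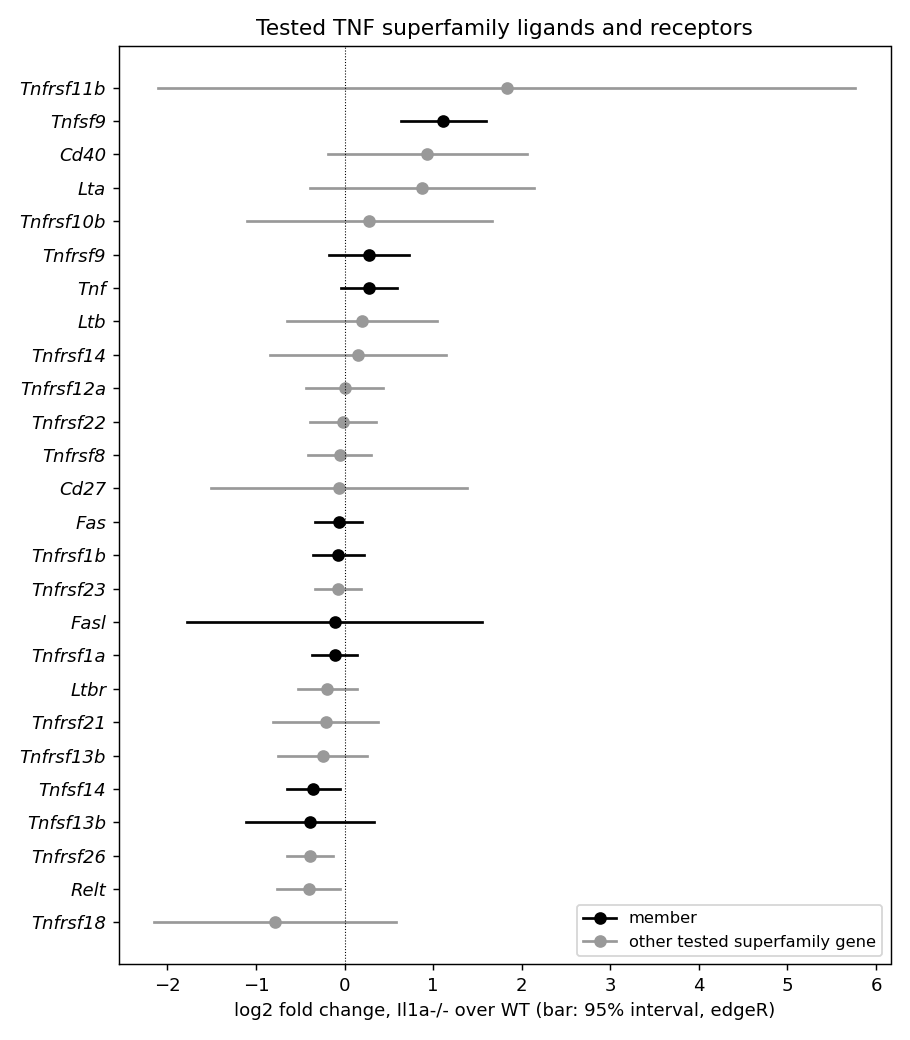
Log2 fold change, Il1a-/- over WT (horizontal axis), with the 95% interval of the edgeR fit for the 26 tested superfamily genes; black marks the 9 members. Intervals leave out 0 for Tnfsf9, Tnfsf14, Tnfrsf26 and Relt before adjustment over all genes, and are wide for scarce genes such as Fasl.

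Downstream of the receptors, 36 of 37 listed signalling and death genes were tested and 0 were called. Their median log2 fold change was 0.02, with 2 higher and 2 lower without overlap (background 6.12% and 5.48%). The most abundant per length were Tnfaip3, the gene of the deubiquitinase A20 that restrains NF-kB, at 4768 ± 716 CPM in WT and 4796 ± 461 CPM in Il1a-/-, Birc3, a ubiquitin ligase gene of the TNF receptor complex, at 821 ± 35 and 794 ± 25 CPM, and Tnip1, a partner of A20, at 492 ± 46 and 527 ± 38 CPM (SD, n = 3 each). The smallest p-values belonged to 3 genes that were not called either. Xiap, a caspase inhibitor gene, was at 21.9 ± 3.2 and 32.3 ± 4.0 CPM (edgeR adjusted p = 0.57), Tab3, an adaptor of the kinase TAK1, at 18.4 ± 1.5 and 13.2 ± 2.8 CPM (0.79), and Bid, which links death receptors to mitochondria, at 29.8 ± 1.3 and 23.9 ± 2.3 CPM (0.83).

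Genes that govern Tnf synthesis, mRNA decay and shedding were all tested, and 0 of 20 were called. Their median log2 fold change was -0.09, with 0 higher and 1 lower without overlap (over all tested genes 0.101% were called, and 6.12% were higher and 5.48% lower without overlap). Zfp36, whose product binds the AU-rich run printed above, was at 2208 ± 258 CPM in WT and 2022 ± 193 CPM in Il1a-/-, and Mapkapk2, a kinase that inhibits it, at 3052 ± 502 and 2952 ± 202 CPM. Litaf, named for a proposed role in Tnf transcription, was at 2643 ± 146 and 2589 ± 120 CPM. Zfp36l1, a relative of Zfp36, was at 207 ± 19 and 171 ± 14 CPM (edgeR adjusted p = 0.83), and the kinase gene Mapk14 at 18.9 ± 8.3 and 12.4 ± 1.6 CPM (0.84). Timp3, an inhibitor of the TNF sheddase Adam17 made mostly by stromal and epithelial cells, was at 2.33 ± 2.27 and 0.245 ± 0.236 CPM (SD, n = 3 each; edgeR adjusted p = 0.60); DESeq2 and the edgeR fit with no filter called it. WT replicate 2, at 4.93 CPM against 0.749 and 1.32 CPM in the other WT libraries, carried most of the Timp3 mean, and without it the log2 fold change went from -3.24 to -2.07. Corneal epithelial markers summed to 25.2 to 174 CPM in WT and 31.9 to 146 CPM in Il1a-/-, and keratocyte and fibroblast markers to 19.6 to 40.9 and 12.95 to 44.4 CPM; their part in the level of Timp3 was not tested.

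Genes that TNF induces through NF-kB were not called either. All 27 listed targets were tested, 0 were called, and 1 was higher and 3 lower without overlap (0.101%, 6.12% and 5.48% over all tested genes). The median log2 fold change was 0.02. The chemokine genes Cxcl2, Ccl4 and Ccl3 were the most abundant per length, at 24092 ± 1985, 16192 ± 2260 and 11137 ± 1667 CPM in WT and 23092 ± 4535, 13909 ± 1634 and 10870 ± 2106 CPM in Il1a-/- (SD, n = 3 each). Il6 was at 3.44, 5.60 and 4.63 CPM in WT and at 6.35, 12.4 and 9.70 CPM in Il1a-/-, a separation without overlap (edgeR adjusted p = 0.54). Its library order was that of Tnfsf9 and of the leading principal component within Il1a-/-, but of neither within WT. Il6 was named for its small p, and an order of only 3 libraries can easily match by chance. Ccl5, a T cell and monocyte chemokine gene, was at 2.51 ± 0.65 and 5.32 ± 2.48 CPM (edgeR adjusted p = 0.76). Tnfaip6, a hyaluronan-binding protein gene, was at 294 ± 46 and 221 ± 36 CPM (edgeR adjusted p = 0.78).

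**Figure D5:**
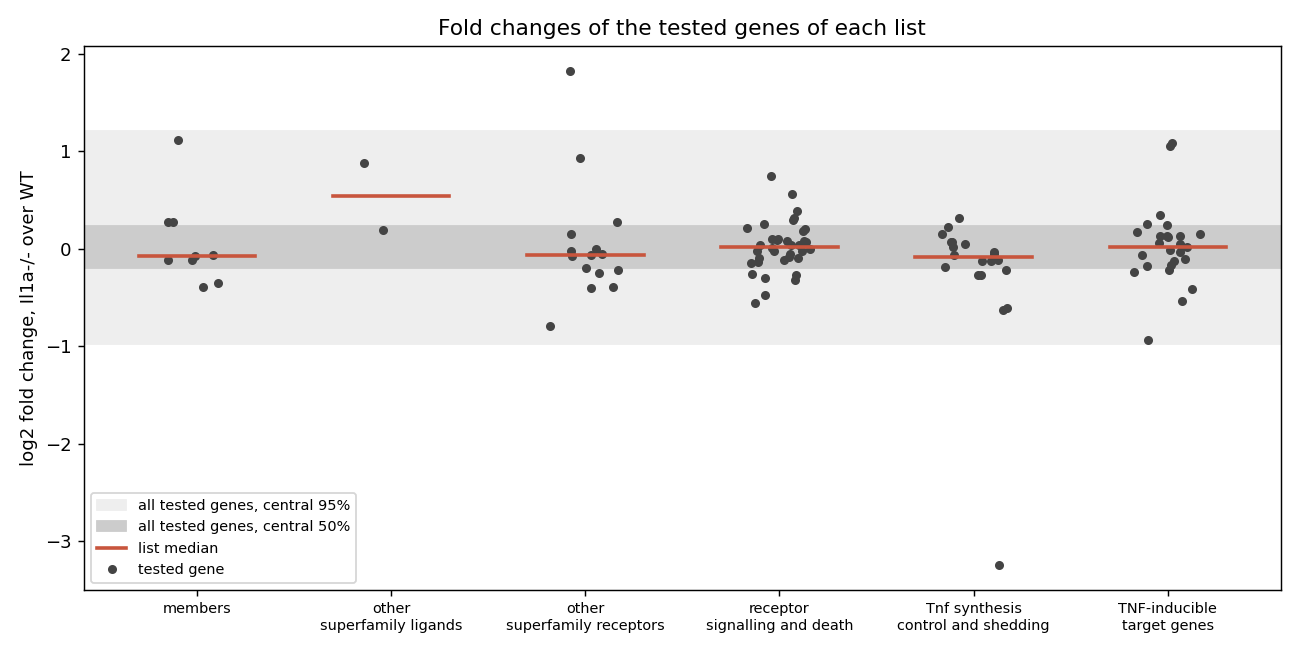
Log2 fold change, Il1a-/- over WT (vertical axis), of each tested gene in the member list and 5 further lists; red bars are list medians and the grey bands hold the central 50% and 95% of all tested genes. List medians lie between -0.09 and 0.02, except for the 2 tested further ligands, whose median is 0.54. Tnfrsf11b, a decoy receptor gene, and Timp3 are the points outside the 95% band. Tnfrsf11b had 6, 136 and 28 counts in WT and 31, 591 and 9 in Il1a-/- (95% interval of the log2 fold change -2.11 to 5.77).

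For Tnf and Tnfsf9, the genes with the most similar pattern over the 6 libraries were sought by the mean absolute difference of centred log2 CPM, among tested genes with a plain symbol and a mean of at least 5 CPM. Among the nearest to Tnf were Dennd1c, a Rab exchange factor gene that neighbours Tnfsf9, and Dnajb2, a chaperone gene, at 0.055 and 0.057. The nearest to Tnfsf9 were Vps39, H2-Q6 and Clcf1, at 0.092, 0.10 and 0.14. Vps39, a lysosomal tethering gene, was at 6.50 ± 1.32 CPM in WT and 16.0 ± 4.1 CPM in Il1a-/-, and lies on chromosome 2, 8.95 Mb from Il1a. H2-Q6, a class I gene with close copies, was at 8.42 ± 1.52 and 18.1 ± 3.6 CPM, and the cytokine gene Clcf1 at 3.69 ± 0.23 and 9.92 ± 3.33 CPM (SD, n = 3 each). None of these 5 genes was called (edgeR adjusted p from 0.14 to 0.88). They were picked for their likeness to Tnf or Tnfsf9 in these same libraries. Their levels and p-values therefore follow from that choice and are no separate result. The likeness describes these 6 libraries only.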

How the data were processed

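RNA from sorted corneal neutrophils was purified with a column kit and amplified with SMART-Seq v4, a full-length kit without strand marks, per the labels' protocols. Per the submitters' processing notes, reads were handled with STAR 2.7.8a, Trimmomatic 0.39 and FastQC 0.11.9, and GRCm38 and mm10 are the builds listed; for the annotation release, nothing is stated. The deposited values are raw gene counts, 1 unstranded and 2 stranded columns per library, of which the unstranded one was used.

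Of 54838 identifiers, 54809 matched GENCODE M21, as did all 9 members, 121 pathway symbols and 107 marker symbols. Genes were filtered by edgeR's default rule by group, scaled with TMM factors and compared by edgeR's robust quasi-likelihood method over 11924 genes (edgeR 4.0.16 with limma 3.58.1 under R 4.3.3). A gene was called at a Benjamini-Hochberg adjusted p under 0.05. An exact permutation test of 3 against 3 libraries cannot give a two-sided p below 0.1, so none is reported. Counting error alone limits scarce genes, since 3 counts amount to 0.0925 to 0.131 CPM. The procedure was tested on simulated counts with 200 changed genes.

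The members and lists were chosen with earlier results of these data known. Named from each pathway list were the called genes, the 3 with the smallest p and the 3 most abundant per length; from each marker list, genes given beside a result. One result under this rule is not reported here. C1q genes, Tnf's neighbours beyond the nearest, and untested genes were named after their values were seen. Promoters are RefSeq windows of GRCm38.p6, which held 8 of the 9 members and had no entry for Tnfsf9, and transcripts are GENCODE M21. Alternatives were other scalings, filters, the strand sum, a replicate block, limma-voom, DESeq2 1.42.0 and each library left out. Figures used matplotlib 3.10.9.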

Additional observations from a re-analysis of the deposited data

How the results depend on the processing

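Over 15 other settings, 0 of the 9 genes were called in 12, and 1, Tnfsf9, in the remaining 3: with no filter, by DESeq2 and without Il1a-/- replicate 1; with 1 library left out the count ran from 0 to 1. The number of called genes, 12 in all, became 185 with no filter, 21 with at least 5 CPM in 3 libraries, 20 with the replicate block, 69 by DESeq2, and 7 to 24 with 1 library left out (7 without WT replicate 1 or WT replicate 2, 24 without Il1a-/- replicate 1). The labels do not say what the replicate numbers mark, so the numbers were not taken to pair libraries. Deviations from the group means correlated at 0.14, 0.057 and 0.0034 for same-numbered libraries and at -0.19 to 0.14 for differently numbered ones. The replicate block gave Tnfsf9 a log2 fold change of 1.09 (edgeR adjusted p = 0.24) and called 0 of the 9. Library size alone moved the median of all genes to 0.06.

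For single genes, 463 fits stayed on the same side of the threshold with the same sign, 6 passed it, and in 20, all of genes called in neither fit, the sign turned. With 1 library left out, log2 fold changes ran from -0.75 to 0.82 for Fasl (without Il1a-/- replicate 3 and without WT replicate 3), from -0.18 to 0.083 for Tnfrsf1b, from -0.29 to 0.50 for Ltb, from -0.080 to 0.13 for Tnfaip3, from -0.17 to 0.077 for Mapkapk2, from -0.078 to 0.014 for Litaf, from -0.14 to 0.11 for Ccl3 and from -0.18 to 0.084 for Cxcl2. Library size alone gave Birc3 0.010, Mapkapk2 0.016, Litaf 0.028 and Ccl3 0.024, the replicate block gave Fasl 0.031, and no filter gave Tnfaip3 -0.0020. The cause was not tested. Il6 was called with no filter (edgeR adjusted p = 0.025). The filter at 5 CPM left out Tnfsf13b and Fasl. Low counts and the spread between libraries limit scarce genes such as Fasl and Lta, with 7 to 49 and 14 to 47 counts per library.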
